A study of Mus musculus with 12 samples.

Results

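The genes examined were the 34 members of a set of imprinted genes and the growth regulators tied to them. Each member was matched by gene name to the probes of the array and was represented by its brightest probe. Of the 34 members, 33 had a probe and *Rian* had none. Their 67 probes included 48 that were bright enough to be tested, and these covered 26 members. A further 7 members, *Peg10*, *Zim1*, *Usp29*, *Phlda2*, *Ascl2*, *Rasgrf1* and *Calcr*, were too dim to test.

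An imprinted gene is transcribed mainly from the copy inherited from a single parent, and the choice is marked by DNA methylation set in the germ line. Many of these genes act on growth: *Igf2* encodes a growth factor, *Igf2r* a receptor that clears it, *Cdkn1c* an inhibitor of cell division and *Grb10* an adaptor that restrains insulin signalling, while *Dlk1* encodes a surface protein of preadipocytes that holds back their differentiation. The arrays measured RNA from both parental copies together, so the values below say nothing on which copy was transcribed.

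Brown adipose tissue (BAT) of mice, male according to the methods, was profiled on 12 one-colour arrays. *Il18*+/+ and *Il18*-/- mice were sampled at 6 and at 12 weeks of age, with 3 arrays in each of the 4 groups. The sample labels name the strain BALB/c, whereas the description of the animals names C57Bl/6 littermates, and the files do not settle this. The members were compared between 12 and 6 weeks of age within each genotype first, and between the genotypes at each age second.

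The *Il18* probe on the array (chr9:50389761-50389820, mm9) was well above background on all 12 arrays. In *Il18*+/+ mice its normalized log2 intensity was −4.92, −4.93 and −4.21 on the 3 arrays at 6 weeks of age and −3.58, −4.44 and −3.56 at 12 weeks. On the *Il18*-/- arrays it was −3.58, −4.50 and −4.19 at 6 weeks of age and −4.13, −4.38 and −4.57 at 12 weeks. The genotype difference, *Il18*-/- minus *Il18*+/+, was 0.60 ± 0.30 (SE) at 6 weeks of age (adjusted p = 0.487) and −0.50 ± 0.30 at 12 weeks (adjusted p = 0.296), and the arrays of the genotypes overlapped at both ages. The files do not say whether the probe lies in the deleted part of the gene, and the genotypes used here are those of the labels. All 14 brown adipocyte markers examined were well above background on every array, and *Ucp1*, which encodes the uncoupling protein of brown fat, ranged from 6.56 to 8.0 over the 12 arrays.

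Each array held 59305 spots other than controls, of which none was saturated and between 29619 and 36371 were well above background. Replicate 1 of the *Il18*-/- mice at 6 weeks of age had the most such spots, 36371, followed by replicate 3 of the *Il18*+/+ mice at 12 weeks with 35136. These arrays also had the highest value for 11 and 8 of the 26 tested members. Outlier spots numbered from 113 to 236 per array. The arrays lay on 2 slides. Slide 1 held all 6 *Il18*+/+ arrays and replicates 1 and 2 of the *Il18*-/- mice at 6 weeks of age, and slide 2 held replicate 3 of that group and all 3 arrays of *Il18*-/- mice at 12 weeks. The genotypes at 12 weeks of age shared no slide, so that slide and genotype cannot be told apart there.

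The tested members spanned a mean normalized log2 intensity from −6.15 to 6.69 with a median of −1.27, against a median of −2.60 over all 28748 probes tested. Of the 26, 25 were well above background on all 12 arrays, and *Igf2* was on 10. The members lay on 10 chromosomes, with 14 on chromosome 7 and 7 on chromosome 6. The mean of the *Il18*-/- mice at 12 weeks of age was the lowest of the 4 group means for 17 of the 26 tested members, and the same held for 52.6% of all probes tested. The mean of the *Il18*+/+ mice at 12 weeks was the lowest for 1 member, against 6.75% of all probes.

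The first comparison asked which members of the set differed between the ages in *Il18*+/+ mice, where all 6 arrays shared a slide. None of the 26 tested members passed the limma threshold in this comparison, against 160 of 28748 probes (0.557%), and 3 members had an unadjusted p below 0.05, as did 4064 of all probes. The median difference, 12 minus 6 weeks, was 0.07 for the members and 0.16 for all probes, with 16 members above zero and 10 below. Without replicate 3 of the *Il18*+/+ mice at 12 weeks the medians were −0.10 and 0.06, with 15 members below zero. The groups did not overlap for 5 members, *Sgce*, *Asb4*, *Impact*, *Kcnq1ot1* and *Copg2*, all higher at 12 weeks, and they did not overlap for 32.1% of all probes. With 3 arrays against 3, the smallest p that an exact permutation test can give is 0.1.

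*Asb4*, which encodes a substrate receptor of a ubiquitin ligase (chr6:5382886-5382945), had the highest age difference of the members in *Il18*+/+ mice. Its log2 intensity was −5.05, −4.35 and −5.14 (−4.85 ± 0.43, SD, n = 3) at 6 weeks of age and −3.70, −3.92 and −3.81 (−3.81 ± 0.11) at 12 weeks. All 3 older arrays lay above all 3 younger ones. The difference of 1.04 ± 0.24 (SE) did not pass (adjusted p = 0.0792), and over the alternatives in processing or model, which do not include leaving out an array, its adjusted p ranged from 0.0411 to 0.333. Without replicate 1 of the *Il18*-/- mice at 6 weeks, which enters through the pooled variance, it passed (adjusted p = 0.0362).

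*Impact*, a paternally expressed inhibitor of a translation kinase (chr18:13151172-13151231), was −0.76, −0.73 and −0.65 (−0.71 ± 0.06) at 6 weeks of age in *Il18*+/+ mice and −0.09, 0.09 and 0.11 (0.04 ± 0.11) at 12 weeks. Again every older array was above every younger one. The difference was 0.75 ± 0.17 with an adjusted p of 0.0724. That call depended on the processing, since 5 of the 11 alternatives in processing or model put it past the threshold (adjusted p from 0.0161 to 0.357 over these alternatives). It also passed without replicate 1 (0.027) or replicate 2 (0.0347) of the *Il18*-/- mice at 6 weeks.

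*H19*, the maternally expressed noncoding RNA next to *Igf2*, varied widely within groups (chr7:149761492-149761551). The *Il18*+/+ arrays gave 0.75, 1.39 and 2.19 (1.45 ± 0.72) at 6 weeks of age and 0.98, 0.05 and −0.06 (0.32 ± 0.57) at 12 weeks. In *Il18*-/- mice it was −0.12, 1.90 and −0.81 (0.32 ± 1.41) at 6 weeks of age and 0.02, −0.24 and −1.52 (−0.58 ± 0.82) at 12 weeks. The age groups overlapped in both genotypes. The age difference was −1.12 ± 0.62 in *Il18*+/+ mice (adjusted p = 0.445) and −0.90 in *Il18*-/- mice (adjusted p = 0.429), where it was 0.23 within slide 2. All 6 tested *H19* probes were below zero in both age comparisons.

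The second comparison asked the same of *Il18*-/- mice. Of the 26 tested members, 2 passed, both lower at 12 weeks of age, against 519 of 28748 probes in either direction (1.81%) and 447 lower (1.55%), and 9 members had an unadjusted p below 0.05, as did 5782 of all probes. The median difference was −0.54 for the members and −0.21 for all probes, and 24 of 26 members were below zero, as were 21762 of 28748 probes. Without replicate 1 of the *Il18*-/- mice at 6 weeks the medians were −0.37 and −0.04, with 18 members below zero. With the scaling over all probes 1451 of 2673 calls were lower and 19 members were below zero, and with quantile normalization 1210 of 2649 and 17. With slide as a term the members' median was −0.28 and 0 members passed. The groups did not overlap for 8 members, all lower at 12 weeks: *Dlk1*, *Meg3*, *Mirg*, *Cdkn1c*, *Gnas*, *Peg12*, *Magel2* and *Kcnq1ot1*. Groups that did not overlap made up 17.8% of all probes.

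*Peg12* belongs to a paternally expressed cluster on chromosome 7 and encodes a protein of the family that binds GSK-3 (chr7:69607011-69607070). On the *Il18*-/- arrays it was −1.83, −1.99 and −2.17 (−2.0 ± 0.17) at 6 weeks of age and −3.46, −3.27 and −3.16 (−3.30 ± 0.15) at 12 weeks. The *Il18*+/+ arrays gave −2.21, −2.11 and −2.10 (−2.14 ± 0.06) at 6 weeks and −2.26, −1.96 and −2.07 (−2.10 ± 0.15) at 12 weeks. The 3 arrays of the older *Il18*-/- mice lay below the other 9 arrays, which lay close together. The age difference in *Il18*-/- mice was −1.30 ± 0.16 (SE; 2.46-fold lower, adjusted p = 0.00267), and in *Il18*+/+ mice it was 0.04, a value that was −0.13 with the scaling over all probes and with quantile normalization. *Peg12* passed in *Il18*-/- mice on leaving out any 1 of the 12 arrays (adjusted p from 0.00301 to 0.0123) and in 10 of the 11 alternatives in processing or model (0.000455 to 0.111). The exception was the fit with slide as a term, which gave −1.12 ± 0.24 (adjusted p = 0.111).

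*Magel2*, from the same cluster, encodes a regulator of ubiquitin ligases (chr7:69526370-69526429). In *Il18*-/- mice its log2 intensity was −4.76, −4.45 and −5.03 (−4.75 ± 0.29) at 6 weeks of age and −6.25, −6.15 and −6.21 (−6.21 ± 0.05) at 12 weeks. The *Il18*+/+ arrays gave −2.95, −4.05 and −3.44 (−3.48 ± 0.55) at 6 weeks of age and −4.59, −4.22 and −3.29 (−4.03 ± 0.67) at 12 weeks. In *Il18*-/- mice every older array was below every younger one, whereas the *Il18*+/+ age groups overlapped. The difference in *Il18*-/- mice was −1.46 ± 0.33 (adjusted p = 0.0441), and in *Il18*+/+ mice it was −0.55 (adjusted p = 0.477). The difference between these age differences was −0.91 and did not pass (adjusted p = 0.271).

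The call on *Magel2* in *Il18*-/- mice was close to the threshold. It was lost without replicate 3 of the *Il18*+/+ mice at 6 weeks of age (adjusted p = 0.0658) or replicate 2 of those at 12 weeks (0.0562). It was also lost without replicate 1 (0.0945) or 2 (0.0725) of the *Il18*-/- mice at 6 weeks, and without replicate 1 (0.0679), 2 (0.132) or 3 (0.131) of those at 12 weeks. Of the 11 alternatives in processing or model, 6 kept *Magel2* past the threshold, with adjusted p from 0.0175 to 0.578 and differences from −1.46 to −0.61.

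*Ndn* and *Snrpn* lie on the same chromosome arm as *Peg12* and *Magel2* and were singled out here after their values were seen. The *Ndn* probe was 32.5 kb from the *Magel2* probe, which was 80.6 kb from the *Peg12* probe, and the *Snrpn* probe was 2360 kb from that of *Ndn*. The age difference of *Ndn* was 0.09 in *Il18*+/+ mice and −0.16 in *Il18*-/- mice. For *Snrpn* the corresponding differences were −0.06 and −0.11. Neither passed in any of the 5 comparisons, but with the scaling over all probes *Snrpn* was higher in *Il18*-/- mice at 12 weeks (0.36, adjusted p = 0.047).

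*Gnas*, which encodes the alpha subunit of the stimulatory G protein, was the brightest member (chr2:174171933-174171992). Its brightest probe gave 6.89, 6.91 and 6.97 (6.92 ± 0.04) at 6 weeks of age and 6.64, 6.64 and 7.07 (6.78 ± 0.25) at 12 weeks in *Il18*+/+ mice. In *Il18*-/- mice it gave 6.99, 6.62 and 6.76 (6.79 ± 0.19) at 6 weeks and 6.32, 6.11 and 6.33 (6.25 ± 0.12) at 12 weeks. The older *Il18*-/- arrays were the lowest of the 12. The age difference in *Il18*-/- mice was −0.54 ± 0.17 and did not pass (adjusted p = 0.117; 0.00677 to 0.77 over the alternatives in processing or model).

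A second, dimmer *Gnas* probe (chr2:174163501-174163560) did pass. On the *Il18*+/+ arrays it was −4.14, −3.59 and −3.75 (−3.83 ± 0.28) at 6 weeks of age and −3.82, −3.76 and −3.71 (−3.76 ± 0.05) at 12 weeks. The *Il18*-/- arrays gave −3.07, −3.49 and −3.29 (−3.28 ± 0.21) at 6 weeks and −5.16, −4.58 and −5.33 (−5.02 ± 0.39) at 12 weeks, below every other array. Its age difference in *Il18*-/- mice was −1.74 ± 0.22 (adjusted p = 0.00267), and with slide as a term it was −1.73 (adjusted p = 0.0763). In *Il18*+/+ mice it was 0.07 and turned negative (−0.11 and −0.16) with the scaling over all probes and with quantile normalization. The locus gives several transcripts from different promoters, and the array annotation names NM_001077510 for the brightest probe and NM_019690 for this one. Whether either probe also reads other transcripts of the locus was not examined.

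*Meg3* and *Mirg* are noncoding RNAs of the maternal copy at the *Dlk1* locus and were singled out after their values were seen, since both lay below zero in *Il18*-/- mice without passing in the fit of all arrays. *Meg3* (chr12:110809678-110809737) was −0.43, −1.12 and −1.53 (−1.03 ± 0.56) at 6 weeks of age in these mice and −1.95, −1.95 and −2.24 (−2.05 ± 0.16) at 12 weeks. *Mirg* was −3.79, −4.47 and −4.09 at 6 weeks and −4.94, −5.30 and −5.30 at 12 weeks. For both, all 3 older arrays were below all 3 younger ones. The age difference of *Meg3* was −1.02 ± 0.29 (adjusted p = 0.0858) and that of *Mirg* was −1.06 ± 0.27 (adjusted p = 0.0633). Over the 11 alternatives in processing or model each passed in 3, with adjusted p from 0.0175 to 0.897 for *Meg3* and from 0.0302 to 0.534 for *Mirg*. *Meg3* also passed without replicate 3 of the *Il18*-/- mice at 6 weeks (0.0367) and *Mirg* without replicate 2 (0.0497). Within slide 2 the differences were −0.52 and −1.09, and the second tested probes of *Meg3* and *Mirg* gave −0.49 (adjusted p = 0.34) and −0.64 (adjusted p = 0.266).

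*Dlk1* itself (chr12:110698721-110698781) was −0.83, −1.82 and −1.34 (−1.33 ± 0.49) at 6 weeks of age in *Il18*-/- mice and −1.98, −1.89 and −1.88 (−1.92 ± 0.06) at 12 weeks. The *Il18*+/+ arrays gave −1.99, −1.07 and −0.97 (−1.34 ± 0.56) at 6 weeks and −0.94, −1.17 and −0.58 (−0.89 ± 0.30) at 12 weeks. In *Il18*-/- mice the age groups stood apart by a small margin, and in *Il18*+/+ mice they overlapped. The age differences were −0.59 (adjusted p = 0.284) and 0.45 (adjusted p = 0.532), and the difference between them was −1.04 (adjusted p = 0.184).

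*Cdkn1c*, *Sgce* and *Igf2r* were among the brightest members that passed in no comparison in the fit of all arrays. *Cdkn1c* was 1.22, 1.67 and 1.26 (1.38 ± 0.25) at 6 weeks and 1.42, 1.13 and 1.96 (1.5 ± 0.42) at 12 weeks of age in *Il18*+/+ mice, and 1.72, 1.21 and 1.60 (1.51 ± 0.27) then 1.03, 0.99 and 0.84 (0.95 ± 0.10) in *Il18*-/- mice. Its older *Il18*-/- arrays were the lowest of the 12, and the age difference in that genotype was −0.56 (adjusted p = 0.199). *Sgce*, which encodes a sarcoglycan, was 0.28, 0.26 and 0.27 (0.27 ± 0.01) at 6 weeks and 0.61, 0.40 and 0.81 (0.61 ± 0.21) at 12 weeks in *Il18*+/+ mice, and 0.85, 0.24 and 0.43 (0.51 ± 0.31) then 0.55, 0.32 and 0.43 (0.43 ± 0.11) in *Il18*-/- mice. The *Sgce* age groups stood apart in *Il18*+/+ mice alone, with a difference of 0.33 (adjusted p = 0.443). *Igf2r* was 0.34, 0.12 and 0.41 (0.29 ± 0.15) at 6 weeks and 0.20, 0.06 and 0.46 (0.24 ± 0.20) at 12 weeks in *Il18*+/+ mice, and 0.54, −0.09 and 0.26 (0.23 ± 0.31) then 0.40, 0.46 and 0.50 (0.45 ± 0.05) in *Il18*-/- mice. The *Igf2r* age groups overlapped in both genotypes. Its age difference in *Il18*-/- mice was 0.22 (adjusted p = 0.528), which passed only with the scaling over all probes (0.40, adjusted p = 0.0367), as did its difference between the age differences (0.62, adjusted p = 0.0403).

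The other 15 tested members passed in no comparison in the fit of all arrays. Their age differences ran from −0.30 to 1.0 in *Il18*+/+ mice (adjusted p from 0.384 to 0.967) and from −1.19 to 0.11 in *Il18*-/- mice (0.0633 to 0.998), with 6 and 14 of the 15 below zero. They were *Igf2*, *Meg3*, *Mirg*, *Peg3*, *Mest*, *Plagl1*, *Ndn*, *Grb10*, *Nnat*, *Snrpn*, *Ppp1r9a*, *Airn*, *Slc38a4*, *Slc22a18* and *Copg2*. *Grb10* had the most negative of these differences in *Il18*-/- mice, −1.19, and replicate 1 at 6 weeks of age (−2.66) stood well above replicates 2 and 3 (−5.33 and −4.78). *Ppp1r9a* (−0.58) passed in *Il18*-/- mice with the scaling over all probes (−0.40, adjusted p = 0.0411) and with quantile normalization (−0.40, adjusted p = 0.0372). *Igf2* itself differed by −0.20 in *Il18*+/+ mice and by −0.25 in *Il18*-/- mice.

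**Figure D1:**
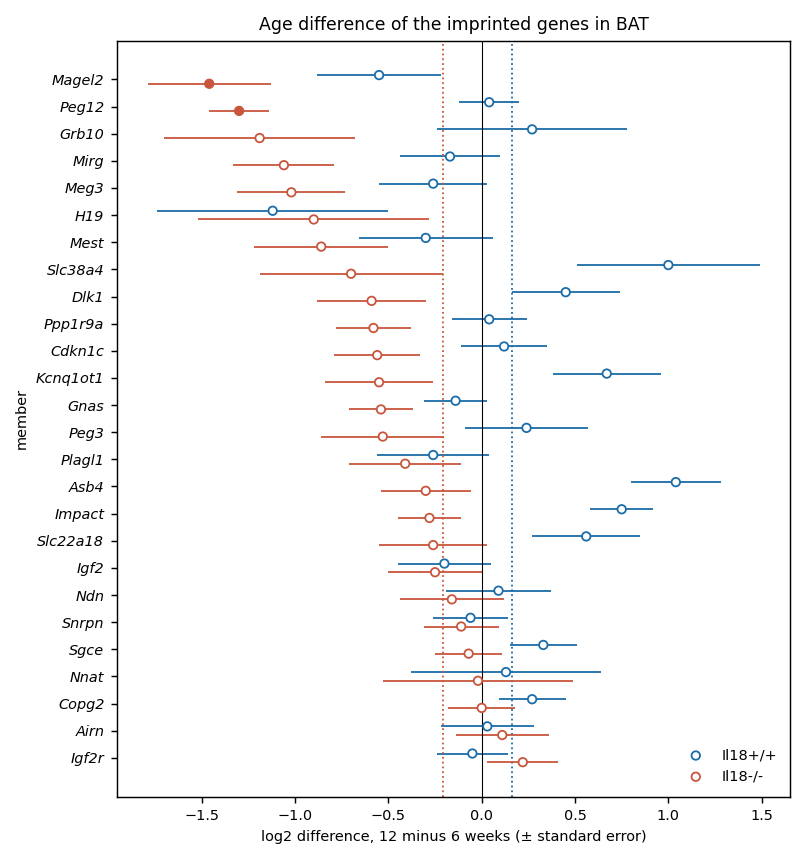
Age difference (log2, 12 minus 6 weeks) of each tested member in *Il18*+/+ and in *Il18*-/- mice, by its brightest probe. Filled points passed the threshold and dotted lines mark the median of all probes, 0.16 and −0.21. *Peg12* and *Magel2* passed in *Il18*-/- mice.

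Split by the parental copy that is expressed, the 11 maternally expressed tested members had a median age difference of 0.04 in *Il18*+/+ mice and −0.56 in *Il18*-/- mice. The 15 paternally expressed ones had medians of 0.09 and −0.41. In *Il18*-/- mice 10 of the 11 and 14 of the 15 were below zero, and both members that passed were of the paternal kind. Over the 26 members, 15 were above zero in *Il18*+/+ mice and below zero in *Il18*-/- mice (57.7%), as were 55.6% of all probes tested. A further 9 members were below zero in both genotypes (34.6%), against 20.1% of all probes. The 2 age comparisons share no array.

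The difference between the age differences, *Il18*-/- minus *Il18*+/+, was tested on its own. It passed for 2 of the 26 members, *Peg12* and *Impact*, both negative, against 576 of 28748 probes (2.0%), and 7 members had an unadjusted p below 0.05, as did 6110 of all probes. The median was −0.65 for the members and −0.36 for all probes, with 23 of 26 members below zero. With the scaling over all probes these medians were −0.30 and −0.01 and with quantile normalization −0.26 and 0.04, each with 17 members below zero. Without replicate 1 of the *Il18*-/- mice at 6 weeks of age they were −0.46 and −0.20. For *Peg12* the value was −1.34 ± 0.23 (adjusted p = 0.0145; 0.00719 to 0.147 over the alternatives in processing or model). It lost its call without replicate 1 of the *Il18*+/+ mice at 6 weeks of age (adjusted p = 0.0554), without a filter on dim probes (0.0907) and with slide as a term (−1.17, 0.147).

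In *Il18*-/- mice *Impact* was 0.13, −0.30 and 0.12 (−0.02 ± 0.25) at 6 weeks of age and −0.31, −0.40 and −0.17 (−0.29 ± 0.12) at 12 weeks, and these groups overlapped. Its difference between the age differences was −1.02 ± 0.23 (adjusted p = 0.0458), from an age difference of 0.75 in *Il18*+/+ mice and −0.28 in *Il18*-/- mice. The call held in 1 of the 12 fits that each left out an array, the fit without replicate 2 of the *Il18*-/- mice at 6 weeks (adjusted p = 0.0182). Leaving out replicate 1, 2 or 3 of the *Il18*+/+ mice gave 0.134, 0.12 and 0.0921 at 6 weeks and 0.0694, 0.0909 and 0.118 at 12 weeks. Leaving out replicate 1 or 3 of the *Il18*-/- mice at 6 weeks gave 0.0605 and 0.0632, and leaving out replicate 1, 2 or 3 at 12 weeks gave 0.0699, 0.103 and 0.0866. Over the alternatives in processing or model the adjusted p ranged from 0.0287 to 0.228. For *Asb4* the value was −1.34 and did not pass (adjusted p = 0.0639; 0.0362 to 0.4 over these alternatives), but it passed without replicate 3 of the *Il18*-/- mice at 6 weeks (0.0442). The second *Gnas* probe gave −1.81 ± 0.31 (adjusted p = 0.0145), and lost its call with slide as a term (−1.80, adjusted p = 0.102) and with no filter on dim probes (0.0972).

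Between the genotypes at 6 weeks of age, none of the 26 members passed the limma threshold, against 163 of 28748 probes (0.567%), and 2 members had an unadjusted p below 0.05, as did 3284 of all probes. The median difference, *Il18*-/- minus *Il18*+/+, was 0.16 for the members and 0.11 for all probes, with 17 members above zero. Without replicate 1 of the *Il18*-/- mice at 6 weeks the direction turned, with medians of −0.12 and −0.06 and 14 of 26 members below zero. With the scaling over all probes they were 0.03 and −0.01, and with quantile normalization 0.02 and −0.04. The groups did not overlap for *Nnat*, *Magel2* and *Impact*, against 14.7% of all probes. *Magel2* was the lowest of the members at −1.27 (adjusted p = 0.128), and *Impact* was higher by 0.69 (adjusted p = 0.102). With the scaling over all probes these 2 passed (adjusted p = 0.0499 and 0.0324), and over the alternatives in processing or model the adjusted p ran from 0.0499 to 0.437 for *Magel2* and from 0.025 to 0.357 for *Impact*. *Impact* also passed without replicate 2 of the *Il18*-/- mice (0.028). Within slide 1 the differences were −1.13 for *Magel2* and 0.62 for *Impact*. In the same comparison the 10 liver genes given further on had a median of 3.43, with 7 above zero and 3 below. As few as 4 of the 10 were above background on an *Il18*+/+ array, so that this median is no exact size. The other cell type lists had medians from −0.32 to 0.51. The part of these lists in the members' values was not tested.

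At 12 weeks of age 5 of the 26 members passed, all lower in *Il18*-/- mice: *Peg12*, *Magel2*, *Asb4*, *Dlk1* and *Kcnq1ot1*. Over all probes 2494 of 28748 passed (8.68%), 2313 of them lower (8.05%), and 12 members had an unadjusted p below 0.05, as did 8019 of all probes. The median difference was −0.52 for the members and −0.26 for all probes, with 22 of 26 members below zero. These medians were −0.29 and −0.03 with the scaling over all probes (19 members below zero), −0.27 and 0.01 with quantile normalization (20) and −0.35 and −0.15 without replicate 3 of the *Il18*+/+ mice at 12 weeks (21). The groups did not overlap for 12 members, all lower in *Il18*-/- mice, against 36% of all probes. Of the 5 members that passed, 1 is maternally expressed and 4 are paternally expressed. Without replicate 1 of the *Il18*-/- mice at 6 weeks *Meg3* (adjusted p = 0.0257), *Gnas* (0.0309), *Grb10* (0.045) and *Slc22a18* (0.0179) passed as well, all lower. *Meg3* also passed with normexp (0.0331) and with the filter on all 12 arrays (0.0488), and *Slc22a18* with normexp (0.0476). With only the arrays of the groups compared both passed (0.0309 and 0.0491). *Gnas* passed as lower with the scaling over all probes (−0.30, adjusted p = 0.0324) and with the mean over its tested probes (−0.90, adjusted p = 0.0118), while *Igf2r* passed as higher with that scaling (0.44, adjusted p = 0.017) and with quantile normalization (0.37, adjusted p = 0.0413). Slide and genotype cannot be told apart in these values, and most cell type marker lists given further on had medians below zero in the same comparison.

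*Magel2* had the largest of these differences, −2.17 ± 0.33 (4.51-fold lower, adjusted p = 0.00445), with all 3 *Il18*-/- arrays below all 3 *Il18*+/+ arrays. Its *Il18*-/- values, −6.25, −6.15 and −6.21, were well above background by the software's call. They lay close to the −6.48 at which the dimmer *Kcnq1ot1* probe was not, so the fold is no exact size. *Peg12* differed by −1.20 ± 0.16 (adjusted p = 0.00275), again with every *Il18*-/- array below every *Il18*+/+ array. Both passed on leaving out any 1 of the 12 arrays and in 10 of the 11 alternatives in processing or model (adjusted p from 0.001 to 0.66 for *Magel2* and from 0.00092 to 0.616 for *Peg12*). The exception in each case was the fit with slide as a term, which gave −1.75 for *Magel2* (adjusted p = 0.66) and −0.94 for *Peg12* (adjusted p = 0.616). The slide term was set by replicate 3 against replicates 1 and 2 of the *Il18*-/- mice at 6 weeks, the one group on both slides. That fit therefore cannot decide between slide and genotype at 12 weeks.

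*Asb4* was −4.17, −4.47 and −4.69 (−4.44 ± 0.26) at 6 weeks and −4.39, −4.76 and −5.05 (−4.74 ± 0.33) at 12 weeks of age in *Il18*-/- mice. These groups overlapped, with an age difference of −0.30 that became 0.02 with quantile normalization, while at 12 weeks all 3 arrays lay below those of *Il18*+/+ mice. The genotype difference at 12 weeks was −0.93 ± 0.24 (adjusted p = 0.0347; 0.0194 to 0.999 over the alternatives in processing or model). The call was lost without replicate 1 (0.0826), 2 (0.0688) or 3 (0.122) of the *Il18*+/+ mice at 12 weeks, and without replicate 2 (0.101) or 3 (0.128) of the *Il18*-/- mice at 12 weeks.

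*Dlk1* was lower in *Il18*-/- mice at 12 weeks by a difference of −1.02 ± 0.29 (adjusted p = 0.049; 0.0155 to 0.999 over the alternatives in processing or model), with all 3 arrays below those of *Il18*+/+ mice. With slide as a term the difference was −1.01. The call was lost without replicate 1 (0.0875), 2 (0.069) or 3 (0.202) of the *Il18*+/+ mice at 12 weeks, and without replicate 1 (0.0913), 2 (0.123) or 3 (0.115) of the *Il18*-/- mice at 12 weeks. At 6 weeks the same held for replicates 2 (0.0656) and 3 (0.058) of the *Il18*+/+ mice and replicate 3 (0.0539) of the *Il18*-/- mice.

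*Kcnq1ot1*, a long noncoding RNA of the paternal copy (chr7:150440140-150440199), was −3.56, −3.34 and −3.49 (−3.46 ± 0.11) at 6 weeks and −3.05, −3.10 and −2.22 (−2.79 ± 0.49) at 12 weeks of age in *Il18*+/+ mice. On the *Il18*-/- arrays it was −2.57, −3.48 and −3.66 (−3.23 ± 0.59) at 6 weeks and −3.73, −3.83 and −3.81 (−3.79 ± 0.05) at 12 weeks. The older *Il18*-/- arrays were the lowest of the 12. The genotype difference at 12 weeks was −1.0 ± 0.29 (adjusted p = 0.0484; 0.0246 to 0.999 over the alternatives in processing or model), and with slide as a term it was −0.36. Leaving out an array ended the call for replicates 1 (0.0669), 2 (0.0703) and 3 (0.0698) of the *Il18*+/+ mice at 6 weeks and replicates 1 (0.0631), 2 (0.0632) and 3 (0.209) at 12 weeks. The same held for replicate 2 (0.0513) of the *Il18*-/- mice at 6 weeks and replicates 1 (0.0755), 2 (0.131) and 3 (0.123) at 12 weeks. The age differences were 0.67 in *Il18*+/+ mice and −0.55 in *Il18*-/- mice (adjusted p = 0.295), and the difference between them was −1.23 (adjusted p = 0.124).

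**Figure D2:**
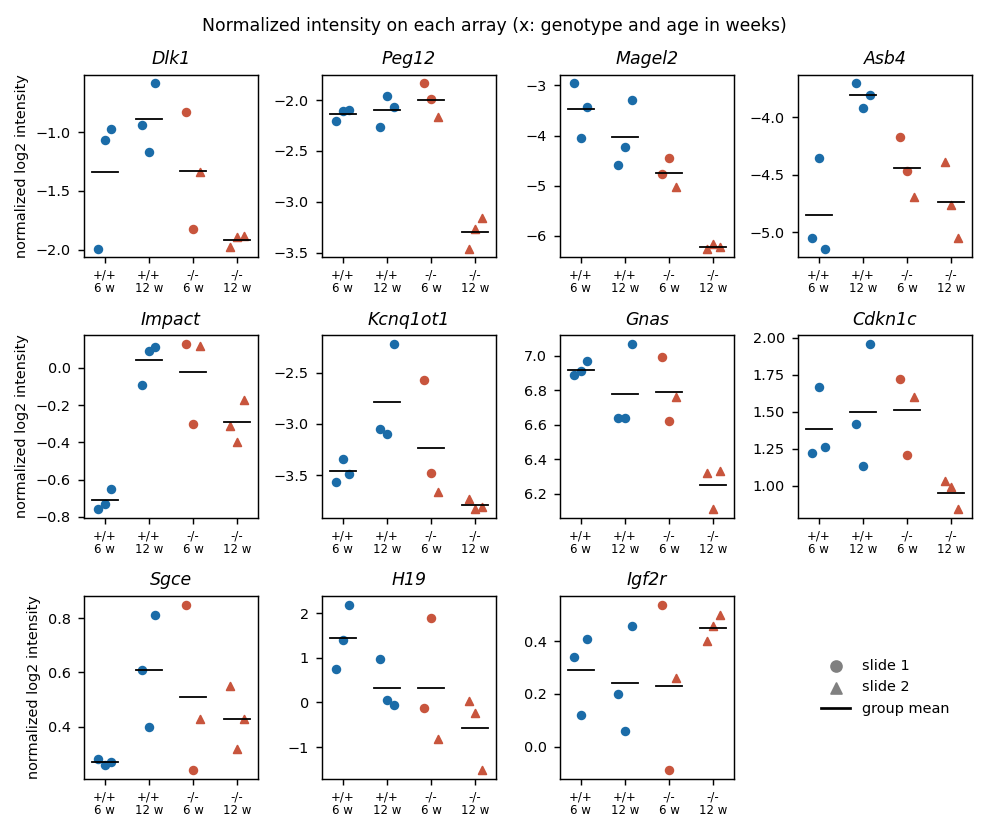
Normalized log2 intensity of named members on each array, by genotype and age. Circles are arrays of slide 1, triangles are arrays of slide 2 and bars are group means. The 3 *Il18*-/- arrays at 12 weeks of age lie below the other 9 for *Peg12*, at −3.46 to −3.16.

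The share of the differences that followed the slide was examined for all members. With slide as a term in the model, none of the 26 members passed in any of the 5 comparisons. Of the members' median age difference in *Il18*-/- mice, −0.54, the arrays of slide 2 alone gave −0.28, with 19 of 26 members below zero, and for all probes the median went from −0.21 to −0.15. For the difference between the age differences the members' median was −0.45 with slide as a term, against −0.30 for all probes. Between the genotypes at 12 weeks of age the corresponding medians were −0.29 and −0.16. *Magel2* had an age difference of −1.18 in *Il18*-/- mice with slide as a term (adjusted p = 0.578), and *Impact* a difference between the age differences of −1.16 (adjusted p = 0.165). With 1 younger *Il18*-/- array on slide 2, these values rest on a single array at 6 weeks of age.

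The scaling moved the median of all probes. With the scaling to the spots well above background, the median age difference of all probes was 0.16 in *Il18*+/+ mice and −0.21 in *Il18*-/- mice, and with the scaling over all probes it was −0.01 and −0.03. The members' median in *Il18*-/- mice less that of all probes was −0.33 under both scalings, −0.27 after quantile normalization and −0.23 after background correction by normexp. That gap was smaller with slide as a term (−0.13), without replicate 2 of the *Il18*-/- mice at 6 weeks (−0.10) and without replicate 3 of those at 12 weeks (−0.18). In *Il18*+/+ mice the same quantity was −0.09, −0.09, −0.05 and −0.04, and the members' own median changed sign, from 0.07 to −0.11 with the scaling over all probes. Members below zero in *Il18*-/- mice numbered 24, 19, 17 and 23 under these 4 treatments. *Peg12* was below zero and past the threshold in *Il18*-/- mice under all 4. *Magel2* was below zero under all 4 and was not past the threshold after quantile normalization (−1.02, adjusted p = 0.116) or normexp (−0.61, adjusted p = 0.155).

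For 15 members more than 1 probe was tested. The dimmer *Peg12* probe (chr7:69608407-69608466) had an age difference of 0.60 in *Il18*+/+ mice and −0.65 in *Il18*-/- mice (adjusted p = 0.155), with a difference between them of −1.25 (adjusted p = 0.076) and a genotype difference at 12 weeks of −0.97 (adjusted p = 0.0291). At 12 weeks of age the dimmer probe of *Dlk1* (−1.36, adjusted p = 0.0325) passed between the genotypes, as its brightest did. The dimmer *Kcnq1ot1* probe was well above background on 0 of 3 *Il18*-/- arrays at 12 weeks. In the fit of all arrays it was lower there than in *Il18*+/+ mice (−1.49, adjusted p = 0.0165). With normexp its value was −0.47 and did not pass (adjusted p = 0.171), and the size of the difference is not known. None of these 3 calls at 12 weeks held with normexp, with slide as a term or with no filter on dim probes. With slide as a term the dimmer probes gave −0.63 for *Peg12*, −1.46 for *Dlk1* and −0.73 for *Kcnq1ot1*. Leaving out 1 array ended the call in 5 of 12 fits for *Peg12* (0.0597 to 0.126), 5 for *Dlk1* (0.0544 to 0.139) and 2 for *Kcnq1ot1* (0.0675 and 0.0836). The dimmer *Impact* probe did not pass for the difference between the age differences (−0.72, adjusted p = 0.497), and that value became 0.02 after quantile normalization. The second *Gnas* probe passed between the genotypes at 12 weeks (−1.26, adjusted p = 0.00849), whereas the brightest did not (−0.53, adjusted p = 0.0725). That call too was lost with slide as a term (−1.25, adjusted p = 0.65) and with no filter on dim probes (0.0583). Probes of the same member had opposite signs for *Plagl1* in *Il18*+/+ mice (−0.26, −0.24, 0.41 and −0.12), for *Gnas* (−0.14 and 0.07) and *Airn* (0.03, 0.07 and −0.10) in the same mice, for *Airn* in *Il18*-/- mice (0.11, −0.30 and −0.38) and for *Nnat* in *Il18*-/- mice (−0.02 and 0.05).

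The 7 members too dim to test had mean log2 intensities from −8.78 to −6.49. *Peg10*, *Phlda2* and *Calcr* were well above background on 0 of 12 arrays, *Usp29* and *Rasgrf1* on 1, *Zim1* on 2 and *Ascl2* on 3. Their few bright spots stood alone: *Usp29* reached −3.43 on replicate 2 of the *Il18*-/- mice at 12 weeks of age, *Ascl2* −3.52 on replicate 1 of the same group and *Rasgrf1* −3.02 on replicate 2 of the *Il18*+/+ mice at 12 weeks.

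The members' summed level, the sum of their unlogged normalized intensities, was 130, 135 and 141 at 6 weeks and 114, 111 and 151 at 12 weeks of age in *Il18*+/+ mice. The *Il18*-/- arrays gave 143, 113 and 121 at 6 weeks and 91.1, 80.4 and 90.8 at 12 weeks. The older *Il18*-/- arrays were the lowest of the 12. *Gnas*, with a mean log2 intensity of 6.69 against 1.34 for the next brightest member, *Cdkn1c*, made up most of every sum. The sums therefore mainly follow *Gnas* and say little on the other members. In bulk tissue, fewer cells that express a gene and less RNA per cell cannot be told apart.

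Genes outside the members were counted in the same way. Of 43 further imprinted genes 32 were tested, with median age differences of 0.17 in *Il18*+/+ mice and −0.09 in *Il18*-/- mice. *Casd1*, which lies near *Sgce*, passed in *Il18*-/- mice, from −1.36, −2.16 and −1.93 at 6 weeks of age to −2.53, −2.90 and −2.73 at 12 weeks (−0.90 ± 0.20, adjusted p = 0.0447). Its difference between the age differences was −1.20 (adjusted p = 0.0528), and its call was lost without any 1 of the *Il18*+/+ arrays, replicate 1 of the *Il18*-/- mice at 6 weeks or replicate 2 or 3 at 12 weeks (0.056 to 0.16). *Dlx5* was past the threshold for the difference between the age differences (adjusted p = 0.0468), but it was well above background on 0 of 3 arrays in *Il18*+/+ mice at 6 weeks and in *Il18*-/- mice at 12 weeks, so that the size of this difference is not known. The fitted value ran from −3.16 to −0.42 over the alternatives in processing or model. The *Dlx5* call held only without replicate 1 or 3 of the *Il18*-/- mice at 6 weeks and was lost without any other array (0.0508 to 0.129).

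Of 28 genes of the insulin-like growth factor axis 22 were tested, with medians of 0.22 and −0.23. *Pik3r1*, the regulatory subunit of a kinase downstream of the receptor, passed in *Il18*-/- mice, from 0.03, −0.24 and −0.77 at 6 weeks of age to −1.50, −2.20 and −1.24 at 12 weeks (−1.32 ± 0.30, adjusted p = 0.0464). In *Il18*+/+ mice its difference was −0.85 and the difference between the age differences was −0.47 (adjusted p = 0.515). The *Pik3r1* call held only without replicate 1 of the *Il18*+/+ mice or replicate 3 of the *Il18*-/- mice at 6 weeks and was lost without any other array (0.0553 to 0.172). Of 22 genes chosen for their fall in many tissues after birth, 17 were tested, with medians of 0.18 and −0.17. *Postn* passed in *Il18*-/- mice (−0.94 ± 0.21, adjusted p = 0.0408), with all older arrays below all younger ones and a difference between the age differences of −0.61 (adjusted p = 0.251). Its call was lost without replicate 2 or 3 of the *Il18*+/+ mice at 6 weeks, 1 or 2 of those at 12 weeks, replicate 1 of the *Il18*-/- mice at 6 weeks or 2 or 3 at 12 weeks (0.0561 to 0.145).

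Of 35 cell cycle genes 27 were tested, with medians of 0.12 and −0.03, and *Ccne1* passed for the difference between the age differences (1.70 ± 0.39, adjusted p = 0.0447), from −0.83 in *Il18*+/+ mice and 0.87 in *Il18*-/- mice. The *Ccne1* call held only without replicate 2 or 3 of the *Il18*-/- mice at 6 weeks or replicate 2 at 12 weeks and was lost without any other array (0.0541 to 0.124). Of 17 regulators of imprints 16 were tested, with medians of 0.11 and −0.28, and with limma 0 passed in either age comparison, while 2 and 6 had an unadjusted p below 0.05. Between the genotypes at 12 weeks 8.68% of all probes passed and 22043 of 28748 were below zero. Of the 16 regulators 2 passed there, *Zfp57* (−0.85, adjusted p = 0.0262) and *Dnmt3b* (−1.04, adjusted p = 0.0307), both lower in *Il18*-/- mice, and 13 were below zero. Neither passed with slide as a term (−0.29 and −0.34) or with no filter on dim probes (0.111 and 0.127), and each lost its call in 5 of the 12 fits that left out an array (0.0514 to 0.121 and 0.0513 to 0.138).

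Marker lists of the cell types of the tissue were read beside the members. All 18 markers of preadipocytes and stroma were tested, with medians of 0.18 in *Il18*+/+ mice and −0.31 in *Il18*-/- mice, the latter −0.11 within slide 2. In *Il18*-/- mice 3 of them passed, *Col1a1* (−1.29, adjusted p = 0.0253), *Col1a2* (−0.98, adjusted p = 0.0447) and *Col3a1* (−1.13, adjusted p = 0.0406), each with all older arrays below all younger ones. Of the 18 markers 14 were below zero there and 4 above, up to 0.72 for *Dpp4*, and of the 11 whose groups did not overlap 9 were lower at 12 weeks and 2, *Mfap5* (0.50) and *Pi16* (0.56), were higher without passing. For the 3 collagens the differences between the age differences were −1.06, −0.98 and −1.12 and did not pass (adjusted p = 0.127, 0.116 and 0.11). The list's summed level was 181, 186 and 209 then 205, 186 and 241 in *Il18*+/+ mice, and 270, 181 and 193 then 176, 146 and 157 in *Il18*-/- mice, and its brightest probe was that of *Sparc*. *Col1a1* lost its call without replicate 1 of the *Il18*-/- mice at 6 weeks (0.0534) or replicate 2 (0.0997) or 3 (0.0971) at 12 weeks. *Col1a2* kept its call only without replicate 3 of the *Il18*+/+ mice or 2 or 3 of the *Il18*-/- mice at 6 weeks (0.0517 to 0.152 otherwise), and *Col3a1* in these and without replicate 3 of the *Il18*+/+ mice at 12 weeks (0.0543 to 0.146 otherwise). The part of these markers in the members' values was not tested.

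All 14 brown adipocyte markers were tested, with medians of 0.07 and −0.16, and their brightest probe was that of *Cidea*. The summed level was 1160, 1150 and 1120 then 1080, 1160 and 1380 in *Il18*+/+ mice, and 1280, 918 and 1220 then 1130, 815 and 1010 in *Il18*-/- mice. *Dio2*, which encodes the deiodinase that activates thyroid hormone, passed in both genotypes with opposite signs, 3.95 ± 0.37 in *Il18*+/+ mice (adjusted p = 0.00062) and −3.40 ± 0.37 in *Il18*-/- mice (adjusted p = 0.0014), with no overlap of the age groups in either. *Ppargc1a* passed in *Il18*+/+ mice (1.93 ± 0.36, adjusted p = 0.0388) and for the difference between the age differences (−2.69, adjusted p = 0.0222). Its first call was lost without any 1 of the *Il18*+/+ arrays or replicate 2 or 3 of the *Il18*-/- mice at 12 weeks (0.0511 to 0.165), and the second without replicate 1 or 2 of the *Il18*+/+ mice at 6 weeks, 3 of those at 12 weeks or 3 of the *Il18*-/- mice at 12 weeks (0.0544 to 0.0676). *Prdm16* passed in *Il18*-/- mice (−1.22, adjusted p = 0.0498), with a difference between the age differences of −1.06 (adjusted p = 0.166), and held only without replicate 2 of the *Il18*+/+ mice at 12 weeks or of the *Il18*-/- mice at 6 weeks (0.0566 to 0.16 otherwise).

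The 14 skeletal muscle markers, with *Tnni2* the brightest, had medians of 0.86 and −0.02, the latter 1.28 within slide 2 with 0 of 14 below zero, and a summed level that ran from 52.7 to 320 over the arrays. The value within slide 2 rests on replicate 3 of the *Il18*-/- mice at 6 weeks of age, which had that lowest level, against 105 and 262 on replicates 1 and 2. With limma 0 of the 14 markers passed in either age comparison and 0 had an unadjusted p below 0.05. Of 12 liver genes 10 were on the array, with medians of −0.31 and −2.95 and *Hp* the brightest. All 10 were well above background on the 3 *Il18*-/- arrays at 6 weeks of age. On replicate 1 at 12 weeks 9 of 10 were, against 4 to 8 on the other arrays, so that these medians are no exact sizes. In *Il18*-/- mice the list's median log2 intensity was −2.37, −2.25 and −1.99 at 6 weeks and −2.30, −6.91 and −7.93 at 12 weeks. *Apoa1* was lower at 12 weeks than at 6 weeks in *Il18*-/- mice (adjusted p = 0.0195) in the fit of all arrays. It was not above background on the arrays at 12 weeks, so the size of the difference is not known. With normexp its value was −0.48 and did not pass (adjusted p = 0.248). It also lost its call without replicate 1 at 6 weeks (0.0617) or replicate 2 (0.0927) or 3 (0.0803) at 12 weeks. The part of liver and muscle RNA in the members' values was not tested.

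The 8 endothelial markers (brightest *Kdr*) had medians of 0.05 and −0.27, and *Cldn5* passed in *Il18*+/+ mice (1.99 ± 0.29, adjusted p = 0.0103) and for the difference between the age differences (−2.0, adjusted p = 0.0329). The first was lost without replicate 3 of the *Il18*+/+ mice at 6 weeks (0.0538) or at 12 weeks (0.0548), and the second without 7 arrays, any *Il18*+/+ array except replicate 2 at 12 weeks and replicates 2 and 3 of the *Il18*-/- mice at 12 weeks (0.0597 to 0.0941). The 5 tested white adipocyte genes (brightest *Retn*) had medians of 0.52 and 0.09, and *Agt* passed in *Il18*-/- mice (−1.60 ± 0.30, adjusted p = 0.0233), with a difference between the age differences of −1.19 (adjusted p = 0.15), and was lost without replicate 1 at 6 weeks (0.0548) or replicate 2 (0.105) or 3 (0.0766) at 12 weeks. Macrophage (6 tested, *Csf1r*), lymphocyte (6, *Cd3e*), nerve (7, *S100b*) and erythroid (6, *Hba-a2*) markers gave 0 limma calls in either age comparison, with 3, 2, 0 and 0 at an unadjusted p below 0.05 in *Il18*+/+ mice and 0, 2, 1 and 0 in *Il18*-/- mice. Their medians were 0.55, 0.74, 0.07 and 0.09 in *Il18*+/+ mice and −0.07, −0.04, −0.07 and −0.15 in *Il18*-/- mice.

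Most calls on these genes also depended on processing or model. In *Il18*-/- mice the age difference passed in 7 of 10 such alternatives for *Col1a1* and *Agt*, in 6 of 10 for *Casd1*, *Pik3r1*, *Postn*, *Col1a2* and *Col3a1*, in 6 of 9 for *Apoa1* and in 2 of 10 for *Prdm16*. In *Il18*+/+ mice it passed in 8 of 10 for *Ppargc1a* and in 9 of 10 for *Cldn5*. The difference between the age differences passed in 7 of 9 for *Cldn5*, in 6 of 9 for *Ccne1* and *Ppargc1a* and in 4 of 8 for *Dlx5*. *Dio2* passed in all of them, in each genotype and for the difference between the age differences.

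Between the genotypes at 12 weeks of age, where the members' median was −0.52, most of these lists had medians below zero as well, as did all probes (−0.26). All 14 skeletal muscle markers were below zero, with a median of −1.09, 12 whose groups did not overlap, 0 past the limma threshold and 4 with an unadjusted p below 0.05. With slide as a term that median was 0.75, a value that rests on replicate 3 of the *Il18*-/- mice at 6 weeks of age. That array had the lowest summed muscle level of all, 52.7. The summed muscle level at 12 weeks was 320, 203 and 193 in *Il18*+/+ mice and 164, 136 and 65 in *Il18*-/- mice. The lymphocyte median was −0.71 with 2 of 6 genes past the threshold, and the summed level was 0.914, 0.908 and 1.23 against 0.596, 0.636 and 0.627. The erythroid median was −0.52 with 0 past the limma threshold and 1 with an unadjusted p below 0.05, and the preadipocyte and stroma median was −0.39 with 4 past it. Leaving out an array ended the call in 5 of 12 fits for *Col1a1*, 6 for *Col1a2*, 5 for *Lum* and 4 for *Gsn*. The lymphocyte call on *Cd3e* was lost in 5. Of the 14 brown adipocyte markers 3 passed, all lower, *Dio2* (−4.49), *Ppargc1a* (−1.75) and *Ucp1* (−0.79, adjusted p = 0.0422), and 7 had groups that did not overlap, all lower, with a median of −0.25 that was −0.49 with slide as a term. The *Ucp1* call was lost in 8 of the 12 fits that left out an array (0.0585 to 0.174). *Retn* (−1.25) and *Agt* (−1.78) passed as lower among 5 white adipocyte genes with a median of −0.07, and all 6 macrophage markers were below zero with a median of −0.38 and 0 past the limma threshold. In processing or model *Dio2* passed in 10 of 10 alternatives, *Ppargc1a* in 9, *Retn* and *Agt* in 8 and *Ucp1* in 6, and leaving out an array ended the *Ppargc1a* call in 3 fits (0.053 to 0.0733). Endothelial and nerve markers had medians of −0.24 and −0.31. The liver genes had a median of 0.59, with 6 above zero and 4 below, and 1 passed, as lower. That list's median log2 intensity was −2.30, −6.91 and −7.93 on the *Il18*-/- arrays at 12 weeks. On the *Il18*+/+ arrays it was −6.57, −7.13 and −5.87, so that the value of 0.59 rests on replicate 1 of the *Il18*-/- mice. The part of these lists in the members' differences between the genotypes was not tested.

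**Figure D3:**
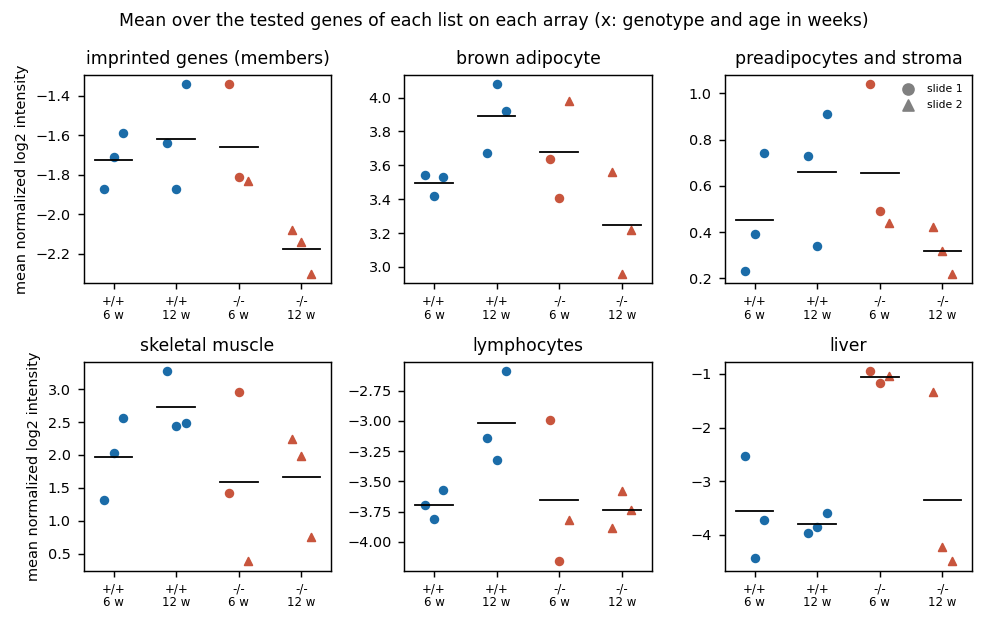
Mean normalized log2 intensity of the members and of 5 marker lists on each array, by genotype and age. The members' mean lies at −2.30 to −2.08 on the 3 *Il18*-/- arrays at 12 weeks of age and at −1.87 to −1.34 on the other 9.

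The probes of 3 noncoding members are given as the array annotation lists them, so that the part of each transcript that was read can be located. They are the probes of *Kcnq1ot1* (chr7:150440140-150440199, minus strand, 40.0% G and C), *H19* (chr7:149761492-149761551, minus strand, 45.0%) and *Meg3* (chr12:110809678-110809737, plus strand, 55.0%), with positions in mm9.

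Kcnq1ot1 probe: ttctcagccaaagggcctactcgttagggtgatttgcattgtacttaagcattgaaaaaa

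H19 probe: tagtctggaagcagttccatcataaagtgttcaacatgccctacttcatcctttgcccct

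Meg3 probe: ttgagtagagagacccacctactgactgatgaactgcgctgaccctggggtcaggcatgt

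The promoters of *Peg12* (chr7:62464511-62464760, minus strand) and *Magel2* (chr7:62376729-62376978, plus strand), the 2 members that passed in *Il18*-/- mice, are given from RefSeq on GRCm38.p6. Each is the 250 bases before the transcript start, with CG pairs in capitals. Methylation was not measured, and whether these stretches carry the imprint of the cluster was not examined, so the counts below say nothing on it. The 2 promoters hold 8 and 7 CG pairs, against a median of 6.0 over 32851 promoters (0 to 56) and of 8.0 over the 39 promoters of 22 tested members. The hexamer TGCCGC, the core recognized by the imprint regulator ZFP57 when methylated, was in neither, in 12.8% of the promoters of the tested members and in 8.68% of all promoters.

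Peg12 promoter: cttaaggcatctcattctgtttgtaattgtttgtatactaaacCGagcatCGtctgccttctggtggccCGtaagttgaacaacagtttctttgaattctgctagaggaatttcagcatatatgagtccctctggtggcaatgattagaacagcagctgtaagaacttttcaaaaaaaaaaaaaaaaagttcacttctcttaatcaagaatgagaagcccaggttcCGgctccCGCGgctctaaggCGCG

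Magel2 promoter: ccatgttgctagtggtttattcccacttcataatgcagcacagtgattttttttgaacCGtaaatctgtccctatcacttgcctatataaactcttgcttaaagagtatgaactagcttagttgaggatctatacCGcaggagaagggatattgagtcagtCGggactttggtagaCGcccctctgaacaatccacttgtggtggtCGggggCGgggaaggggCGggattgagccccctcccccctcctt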

How the data were processed

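The files hold the spot intensities of 12 Agilent one-colour arrays of mouse BAT. The deposited intensity is the processed signal of the scanner software, Feature Extraction, on a linear scale and not normalized between arrays. The file headers give its version as 10.7.3.1, and the methods give another. The series table holds the same intensity rounded (ratios of 0.995 to 1.005).

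Groups were taken from the labels. Control and outlier spots were dropped, 432 probes in more than 1 spot were averaged, and log2 intensities were scaled to the 75th percentile of the spots well above background of each array. Tested probes had at least 50% of their spots above background, by the software's call, on every array of a group. limma 3.58.1 in R 4.3.3 (lmFit, eBayes) fitted the 4 groups, with Benjamini-Hochberg adjustment over all 28748 probes tested and a threshold of 0.05. Where no array of a group was above background, the size of a difference is not known.

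Named genes were the members past the threshold in any comparison, the 5 brightest that passed none, and of each other list the genes past it in an age comparison (at most 4 per direction) and the brightest of each cell type. Members and lists were chosen with earlier results of these data known. Other scalings, filters and blocks, and leaving out each array, were tried. The number of arrays limits the precision. Promoters are from RefSeq.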

Additional observations from a re-analysis of the deposited data

Results flagged for a closer look

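The difference between the age differences, *Il18*-/- minus *Il18*+/+, was itself tested for all 28748 probes and passed the threshold for 576. Among the genes named in the text it passed for 8 probes.

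Among the members these were *Peg12* (−1.34), *Impact* (−1.02) and the second probe of *Gnas* (−1.81). With slide as a term none of the 3 passed, while the differences were −1.17, −1.16 and −1.80.

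Among the other genes they were *Dlx5* (−3.16), *Ccne1* (1.70), *Ppargc1a* (−2.69), *Dio2* (−7.36) and *Cldn5* (−2.0). In 2 of the 4 groups *Dlx5* was well above background on 0 of 3 arrays, so its value is no measure of the size of the difference, and it ran from −3.16 to −0.42 over the alternatives in processing or model. *Dio2* was the one of these that passed on leaving out any 1 of the 12 arrays and in all 9 alternatives in processing or model (adjusted p from 2.4e-15 to 0.00231).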

How the results depend on the processing

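Over all alternatives, 229 log2 differences were followed, 64 of them past the threshold. Their 5108 values stayed on the same side of the threshold in 4595 cases, were no longer past it in 462 and passed it anew in 51, and 0 reversed. The sign changed in 195 cases in which neither value passed. For the 64 that passed, all 1404 values had the same sign, and of the 462 losses 292 came from leaving out 1 array and 53 from slide as a block. The cause was not tested in any of the cases below, except that fewer or more probes were tested with the other filters.

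With the 75th percentile over all probes in place of the spots well above background, the probes past the threshold numbered 917 for the age difference in *Il18*+/+ mice, 2673 for that in *Il18*-/- mice, 1192 for the difference between them, and 935 and 5166 between the genotypes at 6 and 12 weeks. The members numbered 1, 7, 2, 2 and 7. With quantile normalization the probes numbered 960, 2649, 1151, 1038 and 4732, and the members 1, 3, 2, 1 and 5. The share of these probes that was higher moved with the scaling: from 83.1% to 55.9% and 52% in *Il18*+/+ mice, from 13.9% to 45.7% and 54.3% in *Il18*-/- mice, from 7.47% to 42.2% and 51.4% for the difference between them, from 66.9% to 45.6% with quantile normalization at 6 weeks, and from 7.26% to 44.2% and 48.1% at 12 weeks. With normexp background correction 390 probes and 1 member passed for age in *Il18*+/+ mice and 314 probes between the genotypes at 6 weeks.

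With no filter on dim probes the 5 counts of probes were 5, 72, 58, 53 and 178, and those of members 0, 1, 0, 0 and 2. With a filter on all 12 arrays 318 probes and 2 members passed for age in *Il18*+/+ mice and 921 probes and 4 members in *Il18*-/- mice. With slide as a block, 44, 72 and 14 probes passed for age in *Il18*-/- mice, for the difference between the age differences and between the genotypes at 12 weeks, and 0 members in each. With only the arrays of the groups compared, 798 probes and 2 members passed for age in *Il18*+/+ mice and 121 probes in *Il18*-/- mice.

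With the replicate number as a replicate block, 103 probes passed for age in *Il18*+/+ mice, and the members that passed numbered 1 for age in *Il18*-/- mice, 1 for the difference between the age differences and 3 between the genotypes at 12 weeks. Arrays of the same number did not pair: their 18 correlations ran from −0.30 to 0.24, those of other numbers from −0.25 to 0.32, and 1 of 12 arrays had its best partner under its own number.

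Leaving out 1 array at a time gave 31 to 785 probes and 0 to 2 members for age in *Il18*+/+ mice, 117 to 1048 and 1 to 3 in *Il18*-/- mice, and 163 to 1282 and 0 to 2 for the difference between them. Between the genotypes it gave 66 to 320 probes and 0 to 1 members at 6 weeks, and 354 to 5778 and 2 to 9 at 12 weeks.

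The values within a slide were added after the data were seen. The 7 members near background were tested only with no filter on dim probes, and the number of arrays, 3 per group, limits detection.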
